A study of Mus musculus with 8 samples.

Results

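Mitochondrial fatty acid beta-oxidation was examined through 10 genes chosen by symbol: Cpt1a, Slc25a20, Cpt2, Acadvl, Acadl, Acadm, Hadha, Hadhb, Hadh and Acaa2. All 10 were found among the 21983 symbols of the count table, and all 10 passed the filter on low counts. The counts came from RNA-seq of AML-12, an established mouse hepatocyte line grown in medium with fetal bovine serum. The control group was 4 libraries of cells labelled wild type with pLKO.1, a lentiviral vector backbone. In the other group, 4 libraries, the cells overexpressed Gm47544, and the labels name neither vector, clone nor promoter for it. By its title the study concerns hepatic APOC3, an apolipoprotein that raises plasma triglyceride. The comparison was the RNA level of each gene in the overexpression libraries against the control libraries. Gm47544 itself was not analysed here, so the labels were not checked by its level.

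Beta-oxidation shortens fatty acids in the mitochondrial matrix and is a main source of energy in the fasting liver. Long-chain acyl groups enter on carnitine: CPT1A, on the outer membrane, makes acylcarnitine and is the regulated step, SLC25A20 carries it across the inner membrane, and CPT2 returns the acyl group to coenzyme A. Each round then takes a dehydrogenation by an acyl-CoA dehydrogenase matched to chain length, a hydration, a second dehydrogenation and a thiolysis that releases acetyl-CoA.

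Library totals lay between 11016907 and 18965662 counts. Control library 3 stood apart from the other controls: on the first principal component of all tested genes it was at -22.2, the other controls at -60.7 to -49.98 and the overexpression libraries at 43.4 to 50.4. Of 11 hepatocyte markers, 10 reached 1 CPM (counts per 1000000 on scaled library sizes) in some library, and Apoa2 had 1 count in each group. They moved both ways, 3 called higher and 2 lower of 9 tested (median log2 fold change 0.26). Over all tested genes 32.3% were called higher and 32.1% lower, so marker calls are read beside these shares. Alb was at 22.3 and 267 CPM in the group means and Apob at 145 and 244 CPM. Ttr instead was at 1321 and 279 CPM. Ttr thus set the summed level of the hepatocyte markers, 1741 to 2190 CPM in controls and 1120 to 1167 CPM in overexpression libraries. Biliary markers summed to 2897 to 4287 and 4614 to 5234 CPM, and only Spp1 of 5 tested was called higher (943 and 2731 CPM), while Krt19 (2253 and 1702 CPM) and Sox9 (91.3 and 57.9 CPM) were called lower. The Krt19 call is weak: its groups overlapped, and it held in 6 of 19 alternatives, with log2 fold changes of -0.58 to 0.070. Spp1 and Sox9 kept their calls in 19 of 19. Stellate and fibroblast markers summed to 3.56 to 5.47 and 9.86 to 17.5 CPM, with Col1a2, Col3a1 and Lrat at 0 counts. Des (3.95 and 11.3 CPM) and Col1a1 (0.803 and 1.87 CPM), the 2 tested, were both called higher. Endothelial markers summed to 0.125 to 0.697 and 1.37 to 2.18 CPM, and Cdh5, the 1 tested, was called higher (0.117 and 1.29 CPM). Cdh5, Col1a1 and, among the hepatocyte markers called higher, Fgb (0.460 and 3.48 CPM) passed the count filter only through the overexpression libraries. The direction of these calls was therefore largely fixed by the filter and gives no support for a shift. Adipocyte and muscle markers summed to at most 0.708 CPM. Macrophage and leukocyte markers summed to 29.8 to 36.3 and 12.7 to 16.3 CPM, nearly all of it Csf1r (27.1 and 10.2 CPM), with Adgre1, Clec4f and Cd3e at 0 counts. The part of these shifts in the results below was not tested, and in bulk RNA fewer cells of a type and less RNA per cell cannot be told apart.

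The 10 genes did not move as a block. Cpt1a and Acadm rose, by 71.3% and 75.5%, while Acadvl, Hadh and Acaa2 fell and the other 5 did not pass the test. The threshold for a call was 0.05 on the Benjamini-Hochberg adjusted p over the 11520 tested genes (edgeR, quasi-likelihood). The 5 called members of 10 stood beside 64.4% of all tested genes, the 2 higher beside 32.3% and the 3 lower beside 32.1%, so the share called was not above the background. The groups did not overlap for 4 of the 10 genes, against 56.0% of all tested genes. The median log2 fold change of the 10 was -0.11, against 0.000406 for all tested genes, and it changed sign with library totals alone as the scaling (0.012, where all genes shifted to 0.13) and once the trend on exonic length was taken out (0.085). The summed level of the 10 genes was 1017 to 1097 CPM in controls and 1092 to 1172 CPM in overexpression libraries. Cpt1a, the largest part of the sum in overexpression libraries, had group means of 214 and 367 CPM. The sum therefore does not give the direction of the rest.

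**Figure D1:**
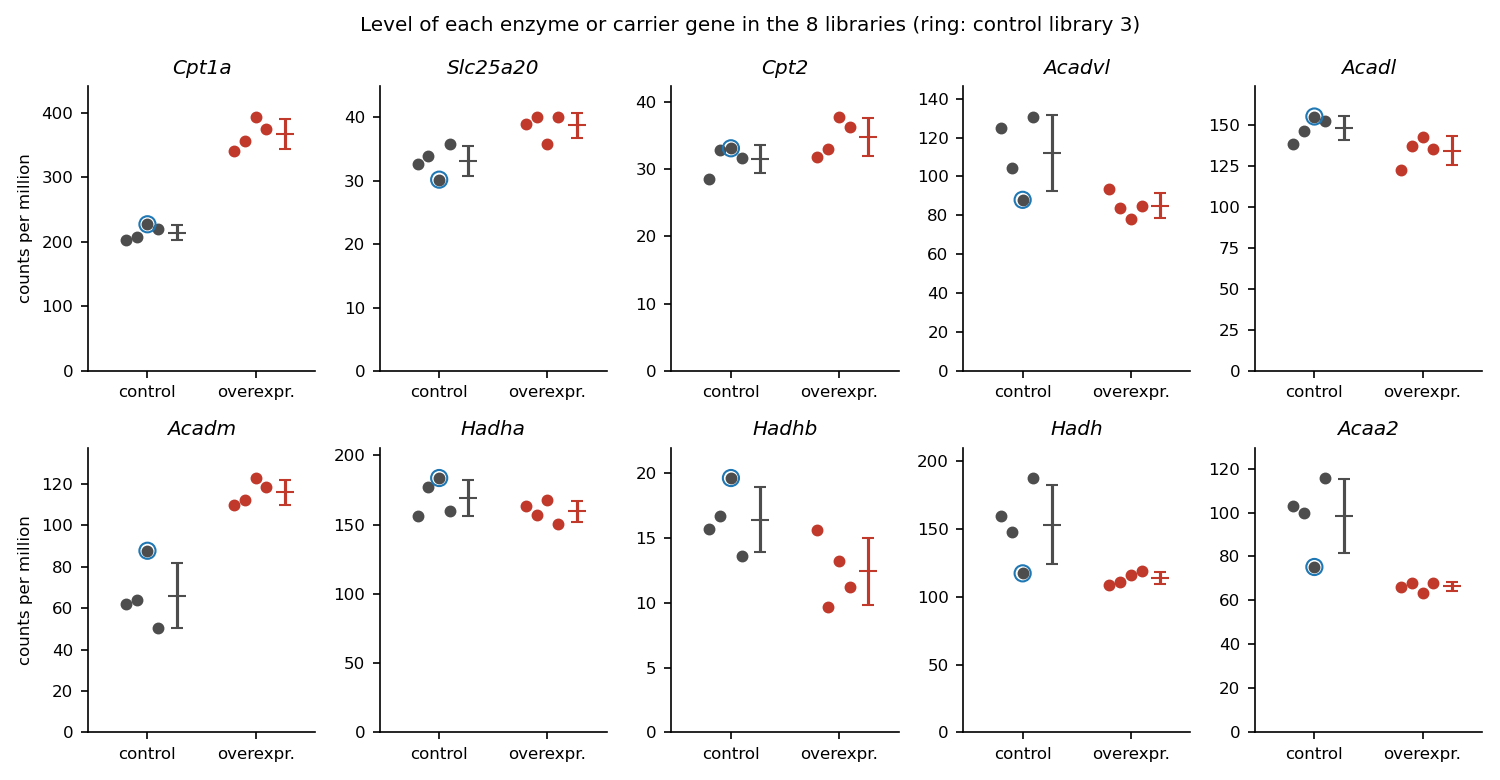
Level of each gene in CPM, 1 point per library, with mean and SD (n = 4) beside the points and a ring on control library 3. Cpt1a, Acadm and Slc25a20 lie higher in all 4 overexpression libraries than in any control, Acaa2 lies lower in all 4, and the groups of the other 6 genes overlap.

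In the carnitine shuttle, only Cpt1a passed the test. Cpt1a (chromosome 19, 3322334 to 3385733, plus strand, GRCm38) was at 202, 207, 227 and 219 CPM in control libraries 1 to 4 and at 341, 356, 394 and 375 CPM in overexpression libraries 1 to 4. Every overexpression library lay above every control, and control library 3 was the highest control. The mean went from 214 ± 11.4 to 367 ± 23.2 CPM (SD, n = 4). This was 0.78 on the log2 scale (SE 0.10, edgeR, adjusted p = 3.58e-05). Cpt1a was called higher in 19 of 19 alternatives, with log2 fold changes of 0.47 to 0.90, and the lowest came with the trend on exonic length removed. The other forms of the enzyme were near 0: Cpt1b had 7 counts over the controls and 32 over the overexpression libraries, and Cpt1c had 0 and 2. The Cpt1b counts are uncertain, because 81.4% of its exonic bases lie in Gm44502 on the same strand.

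Slc25a20, the carnitine-acylcarnitine carrier (chromosome 9, 108662088 to 108684641, plus strand), was at 32.6, 33.8, 30.2 and 35.8 CPM in controls 1 to 4 and at 39.0, 40.0, 35.8 and 40.1 CPM in overexpression libraries 1 to 4. The groups came close without overlapping, and the log2 fold change of 0.23 did not pass (SE 0.11, edgeR, adjusted p = 0.0877). It was called higher in 3 of 19 alternatives: library totals alone (0.36), limma-voom (0.22) and the trend on principal transcript length removed (0.51). Cpt2 (chromosome 4, 107903981 to 107923610, minus strand) was at 28.6, 32.9, 33.1 and 31.6 CPM in controls and 31.8, 33.0, 37.8 and 36.3 CPM in overexpression libraries. These values overlapped, with a log2 fold change of 0.14 (SE 0.12, edgeR, adjusted p = 0.312). Cpt2 passed in 2 of 19 alternatives, with the trend on exonic length removed (0.46) and with that on GC content removed (0.32).

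The ratio of Cpt1a to Cpt2 reads, taken within each library, differed between the groups. There were 7.07, 6.28, 6.86 and 6.93 Cpt1a reads per Cpt2 read in controls 1 to 4, against 10.7, 10.8, 10.4 and 10.3 in the respective overexpression libraries. The log2 ratio was 2.76 ± 0.0755 and 3.40 ± 0.0304 (SD, n = 4), with no overlap (two-sided exact permutation test, p = 0.0286, the smallest that 4 against 4 allow, and 0.0429 adjusted over 3 ratios). The ratio does not depend on the scaling of libraries, but it does on the length trend: the difference of 0.64 became -0.0053 with the trend on exonic length removed (exact permutation test, adjusted p = 1) and 0.31 with that on principal transcript length removed (adjusted p = 0.0429).

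Among the acyl-CoA dehydrogenases, which start each round, Acadm rose, Acadvl fell and Acadl did not pass the test. Acadm, for medium chains (chromosome 3, 153922357 to 153944632, minus strand), was at 61.8, 64.2, 87.8 and 50.2 CPM in controls 1 to 4 and at 110.1, 112, 123 and 119 CPM in overexpression libraries 1 to 4. All overexpression values lay above all controls, and control library 3 lay between the other controls and the overexpression libraries. The log2 fold change was 0.81 (SE 0.15, edgeR, adjusted p = 4.67e-04), and it was 0.95 without control library 3. Acadm was called higher in 19 of 19 alternatives, between 0.70 and 0.99. A processed pseudogene, Gm5131, matches 681 bases of the Acadm transcript at 93.5% identity and has no row of its own, so reads from it are uncertain.

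Acadvl, for very long chains (chromosome 11, 70010183 to 70015411, minus strand), was at 125, 104, 88.0 and 131 CPM in controls 1 to 4 and at 93.5, 83.7, 77.9 and 84.7 CPM in overexpression libraries 1 to 4. Control library 3 lay inside the overexpression range, and the other 3 controls lay above it. The fall of 0.40 on the log2 scale passed (SE 0.13, edgeR, adjusted p = 0.0191) and was 0.52 without control library 3. The call is weak: it held in 12 of 19 alternatives and was lost without control library 1 (-0.35), without overexpression library 2 or 3 (-0.39 and -0.36), with library totals alone (-0.26) and with the trend on exonic length, principal transcript length or GC content removed (-0.11, -0.23 and -0.14). Acadvl overlaps Dvl2, a gene of Wnt signalling on the opposite strand, over 42.9% of its exonic bases. Dvl2 was also lower, at 73.0 ± 12.9 against 47.3 ± 2.11 CPM (SD, n = 4). No source used here gives the strand setting of the counting, so how reads in the shared bases were assigned is uncertain.

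Acadl, for long chains (chromosome 1, 66830839 to 66863277, minus strand), was at 138, 146, 155 and 152 CPM in controls and 122, 137, 142 and 135 CPM in overexpression libraries. The groups overlapped and Acadl did not pass (log2 fold change -0.14, SE 0.10, edgeR, adjusted p = 0.238). Its sign depended on the correction, at 0.27 with the trend on exonic length removed and -0.45 with that on GC content removed, where it was called. The ratio of Acadvl to Acadm reads was 2.02, 1.63, 1.00 and 2.60 in controls 1 to 4, against 0.850, 0.747, 0.634 and 0.714 in the respective overexpression libraries. Controls thus held more Acadvl than Acadm reads or, in library 3, as many, and all overexpression libraries held fewer. The log2 difference was -1.22 (two-sided exact permutation test, p = 0.0286, adjusted p = 0.0429), and -1.01 with the trend on exonic length removed (adjusted p = 0.0857).

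**Figure D2:**
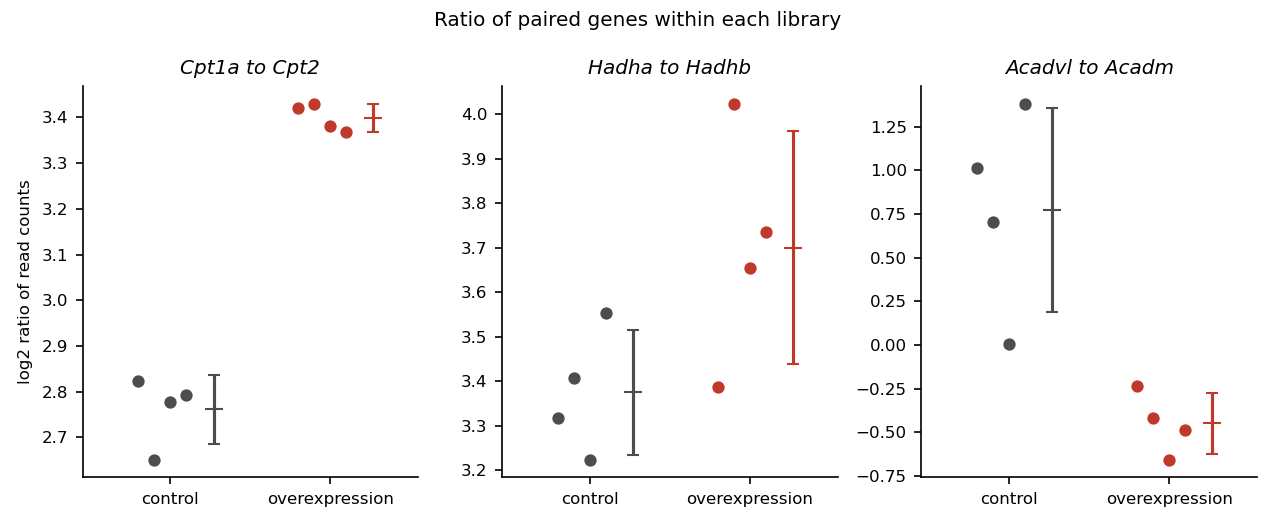
Log2 ratio of read counts in each library for Cpt1a to Cpt2, Hadha to Hadhb and Acadvl to Acadm, 1 point per library with mean and SD (n = 4). The Cpt1a to Cpt2 ratio is higher and the Acadvl to Acadm ratio lower in all 4 overexpression libraries, and the Hadha to Hadhb groups overlap.

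HADHA and HADHB form the trifunctional protein of the inner membrane, which does the last steps of each round on long chains. Hadha (chromosome 5, 30118304 to 30155162, minus strand) was at 156, 177, 184 and 160.1 CPM in controls and 164, 157, 167 and 150.2 CPM in overexpression libraries. The groups overlapped, and the log2 fold change of -0.086 did not pass (SE 0.10, edgeR, adjusted p = 0.480). It turned to 0.038 with library totals alone and to 0.032 with the GC trend removed, and Hadha was called lower, at -0.46 and -0.28, with the trends on exonic and on principal transcript length removed. Hadhb (chromosome 5, 30155248 to 30184593, plus strand) was at 15.7, 16.7, 19.6 and 13.6 CPM in controls and 15.6, 9.64, 13.3 and 11.2 CPM in overexpression libraries. Overexpression library 1 lay inside the control range and the other 3 below it. With 151 to 314 counts per library, Hadhb was the least covered of the 10 genes, with a counting error of up to 8.14%. Its log2 fold change of -0.41 fell just outside the threshold (SE 0.17, edgeR, adjusted p = 0.0502), and it was called lower in 10 of 19 alternatives, among them those without control library 3 (-0.35), control library 4 (-0.49) or overexpression library 1 (-0.54).

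There were 9.97, 10.6, 9.34 and 11.7 Hadha reads per Hadhb read in controls 1 to 4, against 10.5, 16.3, 12.6 and 13.3 in the respective overexpression libraries. The difference of 0.32 in the log2 ratio did not pass (two-sided exact permutation test, p = 0.0857, adjusted p = 0.0857). It was 0.87 with the GC trend removed (adjusted p = 0.0286) and -0.061 with the trend on principal transcript length removed (adjusted p = 0.686), so these data do not fix its direction.

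The promoters of 4 genes are shown because Cpt1a and Acadm rose in all alternatives, Acadvl shares with them a nuclear receptor half-site, and Hadha lies head to head with Hadhb, their annotated RefSeq starts being 273 bases apart. Each is the 250 bases before the RefSeq start on GRCm38.p6, 5′ to 3′ on the gene's strand, and the Hadha window reads in reverse complement through most of the Hadhb promoter (the 300-base windows share 228 bases). Capitals mark motif matches: the half-site AGGTCA in Acadvl and its reverse complement in Cpt1a and Acadm, the reverse complement of the NRF1 core in Acadm (its later capitals), and a CCAAT box near the end of Cpt1a. In GENCODE M21 both Cpt1a and Hadha start further upstream, so the Cpt1a window and most of the Hadha window lie inside the annotated gene. The GENCODE starts of Hadha and Hadhb are 86 bases apart. The windows lie at chr19:3323051-3323300, chr3:153944644-153944893, chr11:70015429-70015678 and chr5:30154981-30155230.
Cpt1a: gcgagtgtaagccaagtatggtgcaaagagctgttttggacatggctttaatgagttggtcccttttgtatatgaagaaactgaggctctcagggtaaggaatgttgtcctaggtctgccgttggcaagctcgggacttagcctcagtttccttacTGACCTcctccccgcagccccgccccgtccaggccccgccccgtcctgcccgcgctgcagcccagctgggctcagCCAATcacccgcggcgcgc
Acadm: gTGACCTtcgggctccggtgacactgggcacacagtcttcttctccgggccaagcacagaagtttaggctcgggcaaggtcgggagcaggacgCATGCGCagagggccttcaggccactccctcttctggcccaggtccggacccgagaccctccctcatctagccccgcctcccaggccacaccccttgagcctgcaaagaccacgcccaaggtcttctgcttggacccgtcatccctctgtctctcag
Acadvl: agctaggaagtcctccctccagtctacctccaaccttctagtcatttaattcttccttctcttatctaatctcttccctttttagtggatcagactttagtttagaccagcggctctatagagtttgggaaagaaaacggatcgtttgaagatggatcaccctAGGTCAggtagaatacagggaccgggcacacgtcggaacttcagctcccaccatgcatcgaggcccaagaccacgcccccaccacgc
Hadha: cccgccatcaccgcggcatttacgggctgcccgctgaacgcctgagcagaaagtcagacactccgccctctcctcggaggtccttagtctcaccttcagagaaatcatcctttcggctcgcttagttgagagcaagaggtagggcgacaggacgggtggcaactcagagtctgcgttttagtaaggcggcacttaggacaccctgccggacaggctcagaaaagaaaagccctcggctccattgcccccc

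Windows of 250 bases before to 50 after the start were searched on both strands for 9 of the 10 genes. AGGTCA, the half-site bound by many nuclear receptors, was in 3 of 9 (Cpt1a, Acadm and Acadvl) and in 16.3% of 32851 mouse promoter windows of the same length. A direct repeat of that half-site with 1 base between (DR1, the form bound by PPAR-alpha) was in 0 of 9 and in 0.0396% of all, and TCAAGGTCA, which contains AGGTCA, in 0 and 0.423%. GCGCATG, the core of the NRF1 motif, was in Acadm and in 3.91% of all windows, CCAAT in Cpt1a and Hadh and in 37.4%, and TATAAA in 0 of 9 and in 13.6%. These are exact letter matches in a short window and carry no information on binding. The half-site was found in genes that rose and in one that fell.

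Hadh, the 3-hydroxyacyl-CoA dehydrogenase for medium and short chains (chromosome 3, 131233419 to 131272101, minus strand), was at 159.9, 148, 117 and 188 CPM in controls 1 to 4 and at 109, 111, 116 and 119 CPM in overexpression libraries 1 to 4. Control library 3 lay among the overexpression values and the other controls above them. The log2 fold change was -0.43 (SE 0.13, edgeR, adjusted p = 0.0135) and -0.56 without control library 3. Hadh was called lower in 18 of 19 alternatives, the exception being the trend on principal transcript length removed (-0.14, adjusted p = 0.276).

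Acaa2, the matrix thiolase that releases acetyl-CoA (chromosome 18, 74779197 to 74806208, plus strand), was at 103, 99.7, 75.2 and 116 CPM in controls 1 to 4 and at 66.0, 68.1, 63.6 and 68.0 CPM in overexpression libraries 1 to 4. All overexpression values lay below all controls, of which library 3 was the lowest. The log2 fold change was -0.57 (SE 0.13, edgeR, adjusted p = 0.00210), so that Acaa2 fell by 32.5%, and it was -0.70 without control library 3. It was called in 17 of 19 alternatives, and its size was -0.0048 after removal of the exonic length trend and -0.16 after removal of the principal transcript length trend (edgeR, adjusted p = 0.966 and 0.164). Acaa2 has 1516 exonic bases, the fewest of the 10 genes.

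**Figure D3:**
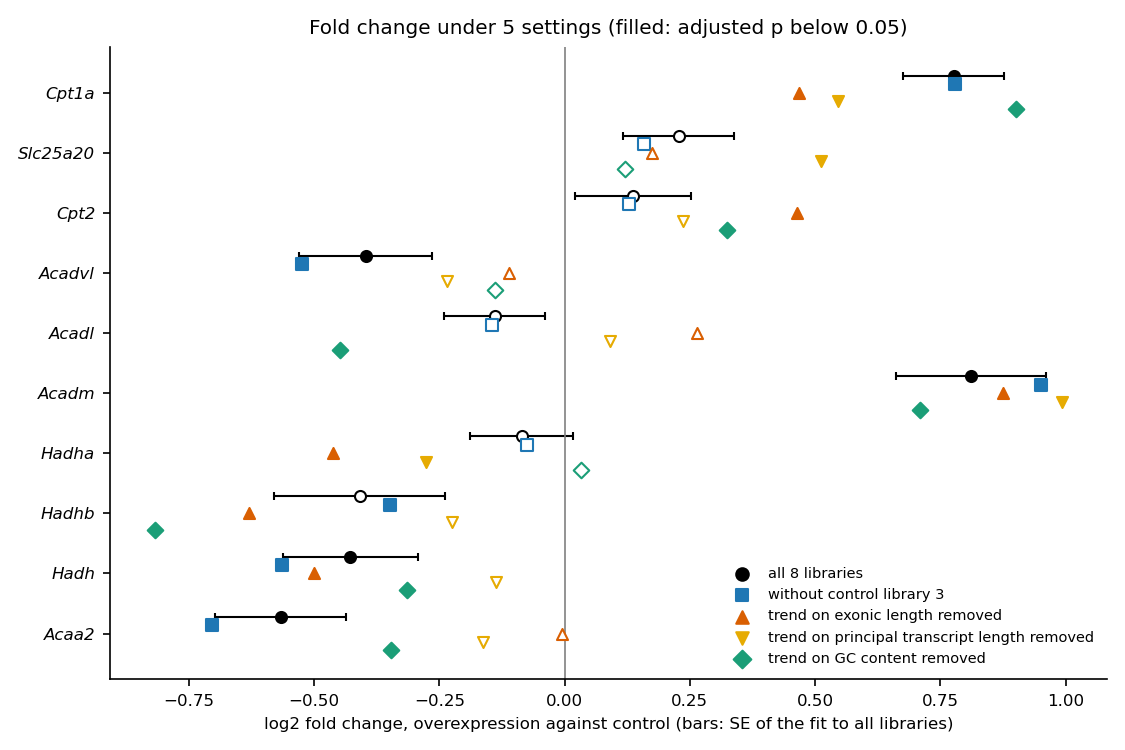
Log2 fold change of each gene, overexpression against control, for all 8 libraries (with SE), without control library 3, and with the trend on exonic length, principal transcript length or GC content removed from each library. Filled symbols have an adjusted p below 0.05: they stay filled in all 5 settings only for Cpt1a and Acadm, both above 0, while Acadvl, Hadh and Acaa2 each lose the call in at least 1.

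The order of the transcripts, compared per kilobase of the principal transcript, differed between the groups. In controls Hadh led with 85.7 ± 16.3 CPM per kilobase (SD, n = 4), followed by Acadl with 77.2, Acaa2 with 64.9, Acadvl with 51.7 and Cpt1a with 49.6 CPM per kilobase, and each of these 5 overlapped its neighbour in the order across libraries. In overexpression libraries Cpt1a led with 84.9 ± 5.38 CPM per kilobase, apart from Acadl at 70.1, which overlapped Hadh at 63.7, and Acadm followed at 56.6 ± 2.89 CPM per kilobase. Slc25a20, Cpt2 and Hadhb held the last 3 places in both groups, with Hadhb at 8.002 ± 1.22 and 6.07 ± 1.26 CPM per kilobase. Hadha, the partner of Hadhb, was at 42.2 and 39.7 CPM per kilobase. How the counting treated strand and ambiguous reads is not stated in these sources. By annotation Hadhb shares 0 exonic bases with Mir1960, which lies within it, and Hadha shares 75 (0.859%) with Garem2 on the opposite strand. The low level of Hadhb and its ratio to Hadha are uncertain, and their cause was not tested.

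Control library 3, set apart on the first principal component, was outside the range of the other 3 controls for all 10 genes. The share of all tested genes outside that range was not taken, so this cannot be called particular to the 10. For 6 of the 10 (Cpt1a, Cpt2, Acadm, Acadvl, Hadh and Acaa2) control library 3 was shifted toward the overexpression libraries. The shift was largest for Acadm (0.59 on the log2 scale above the mean of the other controls), Acaa2 (-0.49), Hadh (-0.49) and Acadvl (-0.44). For Slc25a20, Acadl, Hadha and Hadhb this library was shifted the other way. The coefficient of variation of Acadm, Hadh, Acadvl and Acaa2 was 17.2% to 23.9% in controls and 3.23% to 7.58% in overexpression libraries. It was instead higher in overexpression libraries for Hadhb (15.3% and 20.7%), Cpt1a (5.34% and 6.34%), Cpt2 (6.65% and 8.10%) and Acadl (5.05% and 6.42%).

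Of 15 listed genes of fatty acid activation and carnitine supply 8 were tested, 3 rose and 3 fell (median log2 fold change 0.19; 2 to 5 higher and 2 to 3 lower over the alternatives). Over all tested genes 32.3% were called higher and 32.1% lower, so these counts are near the background. Slc22a5, the carnitine importer of the cell surface, rose from 26.6 ± 1.43 to 48.2 ± 5.15 CPM (SD, n = 4) with no overlap. Acsl3, an acyl-CoA synthetase, rose from 149 ± 44.2 to 246 ± 10.6 CPM, and Crat, which makes acetylcarnitine, fell from 127 ± 14.6 to 84.8 ± 5.33 CPM. Among the enzymes for short, branched and unsaturated acyl-CoA, 4 of 23 rose and 11 fell (median -0.26; 2 to 5 and 7 to 13), and the 15 called stand beside 64.4% of all tested genes. Echs1, the short-chain enoyl-CoA hydratase, fell from 155 ± 19.7 to 90.8 ± 7.71 CPM. The thioesterase Acot13 (log2 fold change -1.03) and the epimerase Mcee (-0.82) also fell, but both calls were lost with the trend on exonic length removed (-0.15 and -0.043) and with that on principal transcript length removed (-0.23 and -0.083).

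The acyl-CoA dehydrogenases pass their electrons to ETF and then to ETFDH. Etfdh rose by 0.63 on the log2 scale (edgeR, adjusted p = 0.00354), between means of 46.0 ± 12.4 and 71.5 ± 1.01 CPM (SD, n = 4), and control library 3 was the highest control at 64.3 CPM. Etfa was at 103 ± 17.8 and 116 ± 3.53 CPM and did not pass (adjusted p = 0.285). Etfb, the partner of Etfa, had 42 and 29 counts and was not tested; Gm45233 covers 53.0% of its exonic bases on the same strand, so its counts are uncertain.

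Of 17 tested regulators 3 rose and 7 fell (median -0.15; 2 to 5 and 4 to 8), against 32.3% and 32.1% of all tested genes. Ppara, the nuclear receptor known to drive many of these genes, was low at 1.99 ± 0.614 and 2.45 ± 0.442 CPM (SD, n = 4) and did not pass (log2 fold change 0.30, edgeR, adjusted p = 0.332). The 3 that rose were Prkaa1, a catalytic subunit of AMPK, with a log2 fold change of 1.06, and the corepressors Nrip1 (0.97) and Ncor1 (0.85, or 0.19 and not called with the trend on principal transcript length removed). The 7 that fell, named after their values were seen, were the nuclear receptors Esrra (-0.81), Rxrb (-0.66) and Ppard (-0.36), malonyl-CoA decarboxylase Mlycd (-0.58), the AMPK subunits Prkag1 (-0.53) and Prkab1 (-0.35), and Lpin1 (-0.33). Subunits of AMPK were thus called in both directions. Of the lower calls, that of Prkag1 held in 17 of 19 alternatives. Those of Prkab1 and Ppard, whose groups overlapped, each held in 11, and that of Lpin1 in 13. Among 9 tested genes known to respond to PPAR-alpha, 2 rose and 2 fell (median -0.12; 1 to 3 and 0 to 4). Acot1, an acyl-CoA thioesterase, had a log2 fold change of -0.46 with overlapping groups and was called in 13 of 19 alternatives. It no longer passed with library totals alone (-0.32), with the trend on principal transcript length removed (-0.33), and on leaving out control library 1 or 4 (-0.39 and -0.35) or overexpression library 1 or 2 (-0.43 and -0.46). The 2 that rose were Vnn1, a pantetheinase (29.7 ± 4.67 to 89.2 ± 5.13 CPM, SD, n = 4), and Txnip (7.20 ± 1.38 to 13.4 ± 6.54 CPM), which overlapped between the groups and lost its call without control library 1 or 4 (0.77 and 0.83) or without overexpression library 3 or 4 (0.57 and 0.80).

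Peroxisomes run a beta-oxidation of their own for very long and branched chains, and 5 of 15 tested genes rose there and 2 fell (median -0.020; 3 to 5 and 1 to 6), against 32.3% and 32.1% of all tested genes. Abcd3, a peroxisomal acyl-CoA importer, rose from 126 ± 29.0 to 259 ± 10.1 CPM (SD, n = 4), Decr2 had a log2 fold change of 0.46, and the racemase Amacr fell by 0.90 on the log2 scale. In the tricarboxylic acid cycle, which burns the acetyl-CoA, 0 of 18 genes rose and 12 fell (median -0.52; 0 to 2 and 9 to 15), and 0 were higher at an unadjusted p below 0.05 in edgeR or at the threshold in DESeq2, while limma-voom called 2 higher. Its lowest p-values were those of Sdhb, Sdhc and Sdhd, subunits of succinate dehydrogenase, with log2 fold changes of -1.28, -1.17 and -1.05. Sdha, another subunit of that enzyme, did not fall, at 291 ± 53.1 and 319 ± 9.46 CPM (log2 fold change 0.13, edgeR, adjusted p = 0.381, not called). Whether the 10 beta-oxidation genes differ from these lists was not tested.

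**Figure D4:**
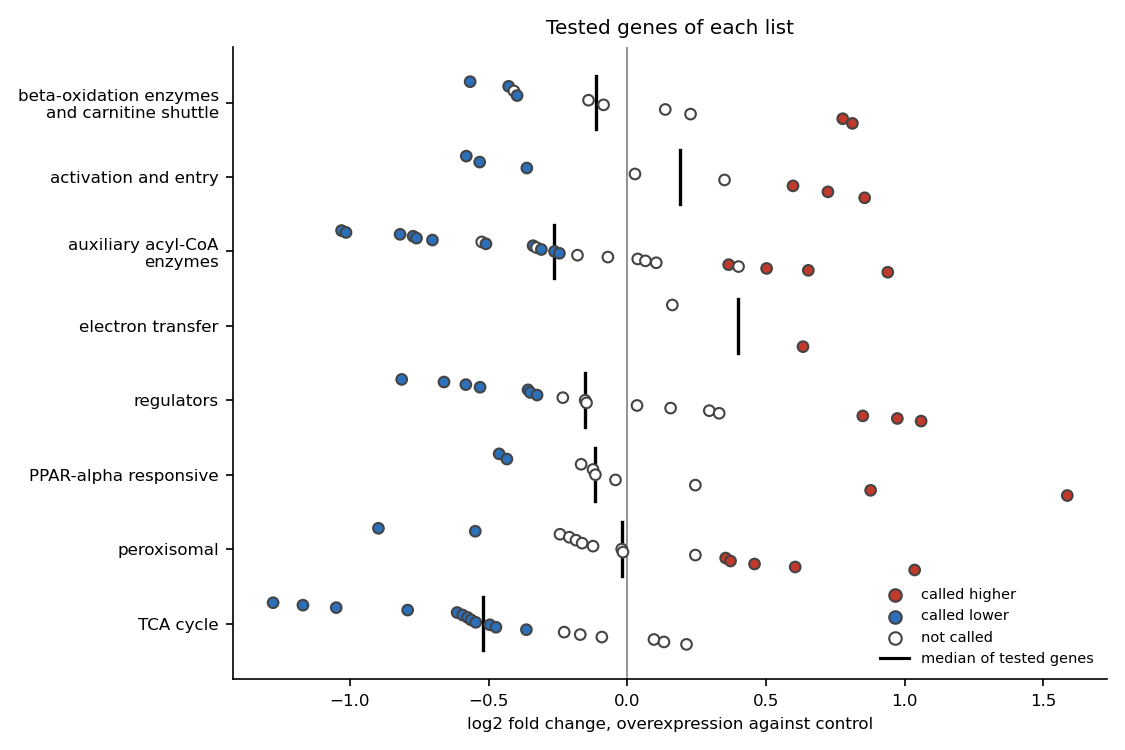
Log2 fold change, overexpression against control, of each tested gene in the 10 beta-oxidation genes and 7 related lists, with the median of each list as a black bar. The 10 genes spread to both sides of 0 around a median of -0.11, the cycle enzymes lie lower around -0.52.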

How the data were processed

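Per the labels' protocols, RNA was isolated with Trizol and the NEBNext Ultra kit was used for the libraries. Per the submitters' processing notes FastQC, STAR and HTSeq were used with build mm10; of versions, annotation and strand setting nothing is stated in these sources. The authors deposited raw counts per gene symbol, whole numbers without normalization. In R 4.3.3, edgeR 4.0.16 tested 11520 genes (filterByExpr, minimum count 10; trimmed-mean scaling; group as sole term, two-sided quasi-likelihood test; Benjamini-Hochberg adjustment), with SE as the log2 fold change over the square root of F. Log2 ratios used counts + 0.5 and exact permutation tests in SciPy 1.17.1. Positions and lengths are from GENCODE M21 (GRCm38; 21926 of 21983 symbols matched), with the longest APPRIS principal transcript as principal, and promoters from RefSeq (GRCm38.p6).

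The genes and lists were chosen with earlier results of these data known. Named were the 10 genes, Cpt1b, Cpt1c, the ETF genes, Ppara and, of each other list, up to 3 called genes with the smallest p. Some genes, and a list that rested on them, are not reported here and were left out of the counts. Alternatives were other scalings, filters and tools (DESeq2 1.42.0, limma 3.58.1), a replicate block, leaving out each library, and removing trends on gene length or GC content (lowess, span 0.3) as offsets; the trend on principal transcript length, and all trend corrections of the ratios, were added after seeing the data. No pair of libraries matched within counting noise (chi-square per gene 2.41 to 102). Whether each library had a culture of its own is not in the labels. The p-values thus reflect only how these libraries vary, and that variation may be technical.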

Additional observations from a re-analysis of the deposited data

Results flagged for a closer look

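Of 68 groups of 4 libraries examined (the 10 genes and the other named genes, in each group), 4 held a library far from the other 3, and chance gives about 1 in 20 such groups; none of the 20 groups of the 10 beta-oxidation genes was among them. In control library 3, Echs1 was at 126 CPM with the other controls at 163 to 167, Prkaa1 at 107 CPM with the others at 57.6 to 64.7, and Abcd3 at 169.7 CPM with the others at 109 to 114. In overexpression library 3, Sdhd was at 114 CPM with the others at 119.9 to 120.1 CPM.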

How the results depend on the processing

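Cpt1a and Acadm kept their direction and call in 19 of 19 alternatives; over the 10 genes, 158 of 190 values kept both, 18 gained a call, 10 lost it and 4 turned. Those that turned were uncalled: Hadha at 0.038 (library totals alone) and 0.032 (GC trend removed), and Acadl at 0.27 and 0.091 (trends on exonic and principal transcript length removed). Outside the 10, Etfa turned to -0.13 with the GC trend removed. Members called lower were 3: Acadvl, Hadh and Acaa2. All of them lost the call with the principal transcript length trend removed (-0.23, -0.14 and -0.16). The 1 member called lower there was Hadha (-0.28). The median of the 10 moved from -0.11 to 0.012 (library totals), 0.085 (exonic length), -0.053 (GC) and -0.023 (principal transcript length); the cause was not tested. The log2 ratio of Cpt1a to Cpt2 turned to -0.0053 (exonic length), that of Hadha to Hadhb to -0.061 (principal transcript length) and passed at 0.87 (GC), and that of Acadvl to Acadm was -1.01 (exonic length), no longer past the threshold.

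Without 1 library the ratios were 0.60 to 0.66 (Cpt1a to Cpt2) and -1.48 to -1.02 (Acadvl to Acadm), and in an exact permutation test 3 against 4 libraries cannot go below p = 0.0571. Same-numbered libraries did not deviate together (correlations -0.12 to 0.023). With the replicate block 7129 genes were called against 7417, and 2 members were higher and 4 lower, Hadhb being added; the blocked ratios were 0.64 and -1.22 with p = 0.125, the smallest that 4 pairs allow (exact sign-flip test). The share of higher calls among all genes was 50.2%, and 58.4% with library totals alone. Of 266 counts over the related lists, 31 moved by over 1.5 times. The PPAR-alpha list had 2 lower genes, 0 without control library 1 or 4 or overexpression library 1 or 2, 1 without control library 2 and 4 without control library 3; its 2 higher genes were 1 without control library 1 or 4 or overexpression library 3 or 4. Without control library 3 there were also 5 higher regulators against 3, 6 lower peroxisomal genes against 2 and 2 higher cycle genes against 0. Without control library 4, 5 entry genes were higher against 3; without overexpression library 3, 3 peroxisomal genes were higher against 5; and without library 4, 4 regulators were lower against 7.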
